A study of Mus musculus with 16 samples.

Results

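The regions described here are the EZH2 peaks of nigericin-treated mouse macrophages that lay inside untreated H3K27me3 and had no EZH2 peak of untreated macrophages across them. They were chosen by the listed peak calls of 3 libraries: the peaks of the nigericin EZH2 list on chromosomes 1 to 19 and X that overlapped no untreated EZH2 peak and overlapped an untreated H3K27me3 peak by at least 1 bp were kept. The set held 1057 of 5054 nigericin EZH2 peaks (20.9%, Wilson 95% interval 19.8 to 22.1), out of 367397 peaks in the 9 lists of the series. As background, 65.0% of all nigericin EZH2 peaks had no untreated peak across them, and 53.3% lay inside H3K27me3. Because the rule used both EZH2 lists and the H3K27me3 list, values from those lists are a description and not support.

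Binding was mapped by chromatin immunoprecipitation and sequencing in primary macrophages of C57BL/6 mice, grown from the bone marrow of adults for 5 days with M-CSF, the growth factor of the lineage. The nigericin EZH2 library came from wild-type cells primed with LPS, a bacterial cell wall component, and afterwards exposed to nigericin, which lets potassium out of the cell and so triggers the NLRP3 inflammasome. The libraries set beside it were EZH2, H3K27me3, H3K27ac and p53 from untreated wild-type cells, and SIRT1 from untreated Ezh2 knockout, Ezh2 wild-type, p53 knockout and p53 wild-type cells. Each of the 9 groups held 1 library, so no difference has a replicate check and every interval covers counting error only. Without an LPS-only library the effects of priming and of nigericin cannot be told apart, and H3K27me3 was mapped in untreated cells only. The labels do not give the knockout alleles, the cells in which a gene was deleted, or the sex of the mice.

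EZH2 is the methyltransferase of Polycomb repressive complex 2, which places H3K27me3 on nucleosomes and keeps developmental genes silent in cells that do not use them. The mark is read back by EED, a partner of EZH2 in the complex, and in this way it can spread over long domains around sites where the complex first settles, often CpG-rich promoters. In macrophages such domains cover genes of other lineages and of embryonic patterning, while genes of the macrophage programme carry H3K27ac. The cell type label was met: all 10 macrophage genes looked up (Csf1r, Cd68, Adgre1, Lyz2, Itgam, Mertk, Spi1, Cebpa, Ptprc and Fcgr1) had H3K27ac at the start, 0 had H3K27me3 there and 0 had a peak of the set.

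Promoter sequences from RefSeq (GRCm38.p6) show what lay under peaks of the set. Each sequence runs from 250 bases before a listed gene start to 50 bases after it, and each CpG is in capitals. The Ebf1, Hoxd1 and Kcnip2 promoters are the windows lying wholly inside peaks of the set that had the highest folds. Gcnt2 is the window with the lowest ratio of observed over expected CpG, 0.292, among formally named genes wholly inside. Bcat1, also wholly inside, held 6 CpG as well, at a ratio of 0.490. For contrast, Cux2 is the window wholly inside a peak shared by both lists, and Hdgfl3 that inside an untreated-only peak in H3K27me3, each with the highest fold of its kind.
Ebf1 (chr11:44619978-44620277, plus strand): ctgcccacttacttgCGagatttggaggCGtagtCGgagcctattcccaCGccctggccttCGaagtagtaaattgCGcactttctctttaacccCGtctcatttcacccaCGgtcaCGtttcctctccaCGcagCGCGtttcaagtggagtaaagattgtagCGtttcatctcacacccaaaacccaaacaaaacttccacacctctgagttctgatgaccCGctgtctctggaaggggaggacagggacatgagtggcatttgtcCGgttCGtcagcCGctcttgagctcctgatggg
Hoxd1 (chr2:74762730-74763029, plus strand): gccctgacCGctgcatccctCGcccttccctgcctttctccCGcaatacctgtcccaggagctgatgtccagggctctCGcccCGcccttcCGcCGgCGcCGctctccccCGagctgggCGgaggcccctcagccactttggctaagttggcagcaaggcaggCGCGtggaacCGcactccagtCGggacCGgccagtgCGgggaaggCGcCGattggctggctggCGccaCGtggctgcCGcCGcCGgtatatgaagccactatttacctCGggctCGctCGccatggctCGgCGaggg
Kcnip2 (chr19:45816014-45816313, minus strand): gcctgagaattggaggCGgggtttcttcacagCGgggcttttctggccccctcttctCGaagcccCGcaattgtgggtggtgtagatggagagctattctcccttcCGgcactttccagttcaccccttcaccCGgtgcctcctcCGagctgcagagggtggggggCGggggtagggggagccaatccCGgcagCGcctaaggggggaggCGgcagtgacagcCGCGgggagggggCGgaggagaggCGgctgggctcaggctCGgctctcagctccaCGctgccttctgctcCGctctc
Gcnt2 (chr13:40886508-40886807, plus strand): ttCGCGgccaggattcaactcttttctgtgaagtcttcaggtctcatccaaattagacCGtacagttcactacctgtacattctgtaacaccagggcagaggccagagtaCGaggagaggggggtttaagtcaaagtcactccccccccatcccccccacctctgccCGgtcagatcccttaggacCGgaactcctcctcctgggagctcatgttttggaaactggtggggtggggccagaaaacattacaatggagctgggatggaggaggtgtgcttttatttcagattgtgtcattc
Cux2, shared peak (chr5:122047776-122048075, minus strand): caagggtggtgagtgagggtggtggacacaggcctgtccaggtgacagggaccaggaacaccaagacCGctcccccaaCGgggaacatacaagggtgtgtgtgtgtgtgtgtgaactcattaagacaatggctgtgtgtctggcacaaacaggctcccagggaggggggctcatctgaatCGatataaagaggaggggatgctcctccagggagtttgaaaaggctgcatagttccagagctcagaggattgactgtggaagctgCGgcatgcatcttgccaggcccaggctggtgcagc
Hdgfl3, untreated-only peak (chr7:81934410-81934709, minus strand): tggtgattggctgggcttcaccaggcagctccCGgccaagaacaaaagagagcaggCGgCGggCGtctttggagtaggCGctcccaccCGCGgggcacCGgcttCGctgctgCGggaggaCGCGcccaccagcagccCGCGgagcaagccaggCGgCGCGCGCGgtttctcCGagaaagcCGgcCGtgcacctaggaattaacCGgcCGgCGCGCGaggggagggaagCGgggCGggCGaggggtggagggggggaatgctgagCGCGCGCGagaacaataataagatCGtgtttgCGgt
The windows of the set held 17 CpG at Ebf1, 29 at Hoxd1, 18 at Kcnip2 and 6 at Gcnt2, against 4 at Cux2 and 36 at Hdgfl3. CpG-rich and CpG-poor promoters were both met by peaks of the set and by the other EZH2 peaks.

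The peaks of the set were low and narrow. Their fold over the local background, the authors' own value for each peak, had a median of 2.70 (quartiles 2.39 and 3.10) and a highest value of 5.08. At the summit they held a median of 10 fragments (9 and 12), solved from the listed fold and p-value, and their median length was 439 bp. The 1639 nigericin peaks in H3K27me3 that met an untreated peak held 15 fragments (12 and 19) over 765 bp. The 2593 untreated-only peaks in H3K27me3 held 12 fragments over 510 bp, and the 2230 nigericin-only peaks outside H3K27me3 held 9 over 384 bp. In the set, 92 peaks (8.70%, 7.15 to 10.6) had a q-value of at most 0.05, against 32.5% of the shared, 23.6% of the untreated-only and 4.39% of the outside peaks. For 478 peaks of the set (45.2%) the listed q was 1.

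The EZH2 lists had been limited at a p of 0.01 and not by q, and the absence of a listed peak is not the absence of signal. At the most common background of the untreated list, 2.74 fragments, a peak was listed from 7 fragments (2.14-fold), and at that of the nigericin list, 2.34 fragments, also from 7 fragments (2.39-fold). The untreated list was the longer, with 9581 peaks on these chromosomes. Along the edge of the rule, the 113 peaks of the set within 200 bp of an untreated peak had a median of 2.69-fold and 11 fragments, and the 67 shared peaks that met an untreated peak by at most 100 bp had 2.61-fold and 12 fragments. At the other edge, the 19 peaks of the set with at most 50 bp in H3K27me3 and the 15 nigericin-only peaks that missed it by at most 200 bp both had a median of 8 fragments. Most of the set lay deep in the mark: 939 of 1057 peaks (88.8%) were wholly covered by it.

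**Figure D1:**
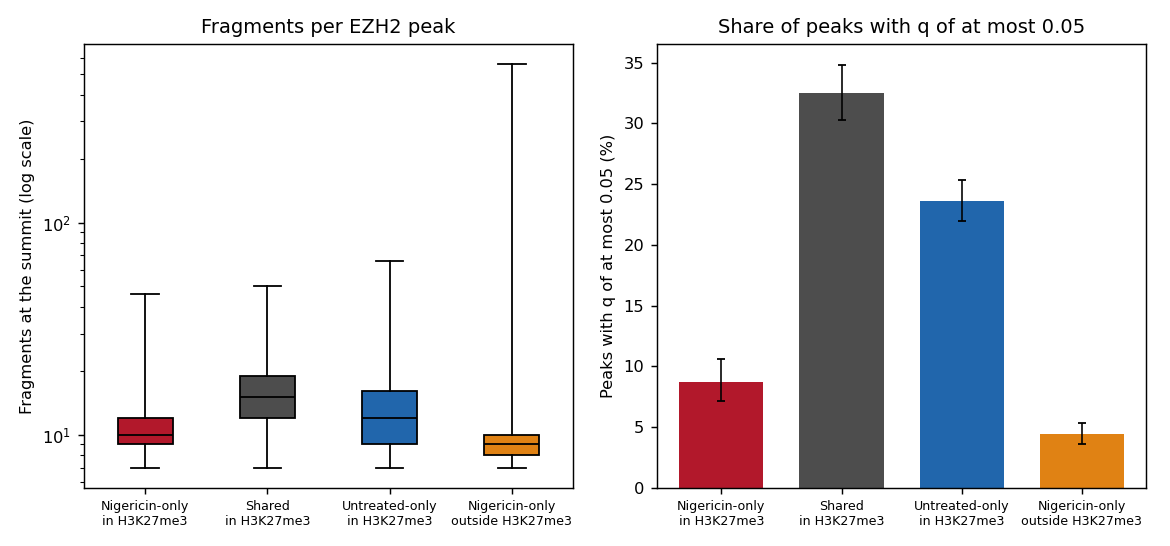
Fragments at the summit (left, log scale; line, median; box, quartiles; whiskers, lowest and highest peak) and share of peaks with q of at most 0.05 (right, bars from 0 with Wilson 95% intervals) for the 1057 nigericin-only peaks in H3K27me3 and 3 other sets of EZH2 peaks, 1 library each. The set has a median of 10 fragments and 8.70% of peaks with q of at most 0.05, below the shared and untreated-only peaks in H3K27me3 and above the nigericin-only peaks outside it.

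Most peaks of the set had untreated EZH2 close by. The nearest untreated EZH2 peak lay within 1 kb for 388 of 1057 (36.7%, 33.9 to 39.7), within 5 kb for 59.3% and within 10 kb for 65.1%, with a median distance of 1971 bp (quartiles 583 and 34339). Of the nigericin-only peaks outside H3K27me3, 2.96% lay within 1 kb of an untreated peak, and the median was 94331 bp. The reverse question gave intermediate values: 20.7% of the untreated-only peaks in H3K27me3 had a nigericin peak within 1 kb, with a median of 15421 bp. That comparison runs to a list of 5054 peaks in place of 9581, so both directions are not measured alike. At the far end, 236 peaks of the set (22.3%) had no untreated EZH2 peak within 50 kb.

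**Figure D2:**
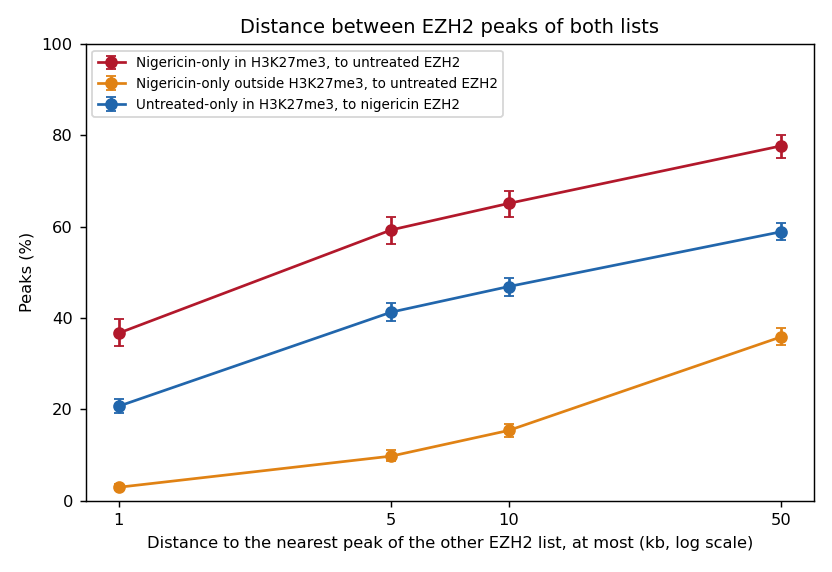
Share of peaks (%) with a peak of the other EZH2 list at most 1, 5, 10 or 50 kb away (log axis; bars, Wilson 95% intervals). Nigericin-only peaks in H3K27me3 reach 36.7% at 1 kb and 77.7% at 50 kb, and nigericin-only peaks outside it 2.96% and 35.9%.

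Neighbouring H3K27me3 peaks were joined into domains over gaps of at most 5 kb, which gave 16745 domains. The set fell into 764 of them, 591 with a single peak of the set. For 789 peaks (74.6%, 71.9 to 77.2) the same domain held an untreated EZH2 peak, and for 570 (53.9%) the same H3K27me3 peak did. The other 268 peaks lay in 242 domains in which the untreated list had none. In those domains the mark was lower, with a median H3K27me3 of 5.19-fold under the peak against 8.22-fold where untreated EZH2 was present, and the H3K27me3 peaks were shorter, 3348 against 9356 bp. The EZH2 peaks themselves held a median of 10 fragments in both kinds of domain. Their quartiles were 8 and 11 against 9 and 12, and 5.97% against 9.63% had a q of at most 0.05. The domains had a median length of 15242 against 47002 bp under the peaks, and the part of domain length was not tested.

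The mark under the set was high beside the H3K27me3 list as a whole. The H3K27me3 peak under a peak of the set had a median of 7.63-fold (5.46 and 9.63) and 7390 bp, against 9.14-fold and 11810 bp under the shared peaks and 6.92-fold and 5970 bp under the untreated-only peaks. Over all 88037 H3K27me3 peaks the medians were 3.50-fold and 727 bp. The part of H3K27me3 peak length in these values was not tested.

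By place, 191 peaks of the set (18.1%, 15.9 to 20.5) lay within 1 kb of the start of a protein-coding gene, against 32.9% of the shared and 27.7% of the untreated-only peaks in H3K27me3 and 1.79% of the nigericin-only peaks outside it. Another 435 (41.2%) overlapped genes away from their counted starts, against 32.0% of the shared and 33.3% of the untreated-only peaks, and 301 (28.5%) lay outside genes. The remaining 69 lay at an end of a protein-coding gene whose strand was not given and 61 at a lncRNA gene. Chromosome X held 8 peaks of the set (0.757%), while it held 26.7% of the H3K27me3 peaks and 0.712% of all nigericin EZH2 peaks. The highest on X, inside the ubiquitin ligase gene Mid1 (chrX:169923776-169924100), had 3.89-fold with 12 fragments.

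Of 21631 protein-coding genes, 259 had a peak of the set at the start (1.20%), or at either end where the strand was not given. Of these, 134 (0.619% of all genes) had no untreated EZH2 peak at any counted start or end. The other 125 had an untreated peak at the same or another counted start or end of the gene. By comparison, 7.18% of genes had an untreated EZH2 peak and 23.1% had H3K27me3, and among the 5000 genes with H3K27me3 5.18% had a peak of the set. Of the 259 genes, 5 (1.93%) had H3K27ac, against 25.6% of all genes and 5.20% of the genes with H3K27me3. The group counts below were made on lists chosen with earlier results of these data known and are read against the 1.20% of all genes and the 5.18% of genes with H3K27me3.

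Embryonic transcription factor genes were among those with a peak of the set. Of 64 developmental factor genes outside the homeobox list, 11 had a peak of the set (17.2%; all 64 had H3K27me3), among them Foxf1, Zic4, Tbx5, Pax5, Tbx15, Osr2, Gata2, Pax8, Pax3, Sox9 and Hand1, and 4 of the 11 had no untreated peak at the start. Of 60 homeobox and HOX cluster genes, all with H3K27me3, 6 had a peak of the set: Hoxb13, Nkx2-2, Hoxd1, Otx2, Alx4 and Hoxb1. In that list 49 genes had an untreated EZH2 peak at the start, and 1 of the 6 had none. Among genes with H3K27me3, the shares above 5.18% included 17.2% of these developmental factors and 16.0% of TGF-beta and BMP genes. They also included 15.4% of the factors of epithelial-mesenchymal transition, 13.3% of lymphoid genes, 11.8% of ephrins and Eph receptors and 8.11% of WNT genes. The collagens and proteoglycans lay below 5.18% at 3.33%. The cadherins (14 genes with H3K27me3), the erythroid, endothelial and stromal genes (9) and the Polycomb genes (7) gave 0. The fibroblast growth factors and the glutamate and GABA receptors stood at 5.26% each, with 1 of 19 such genes. Any shorter list with a peak therefore lies above 5.18% by its size alone, and a general excess cannot be read from these lists. All these shares rest on few genes and were not tested. EZH2 peaks in general were also frequent in the developmental list. There 49 of 64 genes had an untreated EZH2 peak and 37 a nigericin one, against 1554 and 893 of 21631 protein-coding genes. A high share in that list was therefore not particular to the set.

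The highest peak of the set lay at Ebf1, the gene of an early B-cell factor (gene 13591, chr11:44618100-45008096, plus strand). The peak (chr11:44619798-44620497) had 5.08-fold with 16 fragments and a −log10 q of 4.49, and its summit was 55 bp after a listed start, just past the promoter window printed above, which the peak covers whole. H3K27me3 there was 6.92-fold. No untreated EZH2, H3K27ac or p53 peak was listed at that start, and the nearest untreated EZH2 peak, 2832 bp away, had 2.47-fold with 9 fragments. A SIRT1 peak of 2.20-fold from Ezh2 wild-type cells met the Ebf1 peak. Pax5, the B-cell identity factor gene, had a lower peak of the set (chr4:44709901-44710573, 2.83-fold, 10 fragments, −log10 q 0.156) with an untreated peak of 1.93-fold (17 fragments) 488 bp away. Of 24 lymphoid genes, Ebf1 and Pax5 were the 2 with a peak of the set, and 15 had H3K27me3.

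Pax8, a factor of thyroid and kidney, had a peak of the set inside the gene (chr2:24473061-24474118) with 4.69-fold, 16 fragments and a −log10 q of 3.87. It lay in a domain of 95659 bp with no untreated EZH2 peak, and the nearest was 287117 bp away. Other nigericin peaks stood on either side of it within the same gene, at 2.69-fold and 2.27-fold. Snai2, the zinc-finger repressor of epithelial-mesenchymal transition (gene 20583, chr16:14705852-14709395), likewise had a peak of the set beside it (chr16:14704597-14705742; 4.19-fold, 13 fragments, −log10 q 2.37) with the nearest untreated peak 80119 bp away. H3K27me3 at Snai2 was 4.94-fold, below the median under the set. Of 16 factor genes of that transition, Snai2 and Grhl3 had a peak of the set, neither with an untreated peak at the start, and 13 had H3K27me3. At Grhl3, an epithelial factor gene, the peak had 2.86-fold with 16 fragments over a background of 4.95 and a −log10 q of 0.865.

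Hoxb13, a posterior HOX gene, was the contrasting case. Its peak of the set (chr11:96196616-96197286) had 4.16-fold with 13 fragments and lay 1080 bp from an untreated peak of 1.93-fold, in a domain with 25 untreated EZH2 peaks and H3K27me3 of 15.6-fold. Nkx3-2 (4.46-fold, 14 fragments; chr5:41765012-41767220, the longest peak of the set at 2209 bp) had an untreated peak of 4.52-fold with 19 fragments 1049 bp away. Sall4, a stem cell factor gene, had 4.19-fold with 13 fragments and an untreated peak of 3.19-fold with 14 fragments 880 bp away. Gene starts with the highest folds of the set thus included both kinds, those with an untreated EZH2 peak beside the peak of the set and those far from any.

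**Figure D3:**
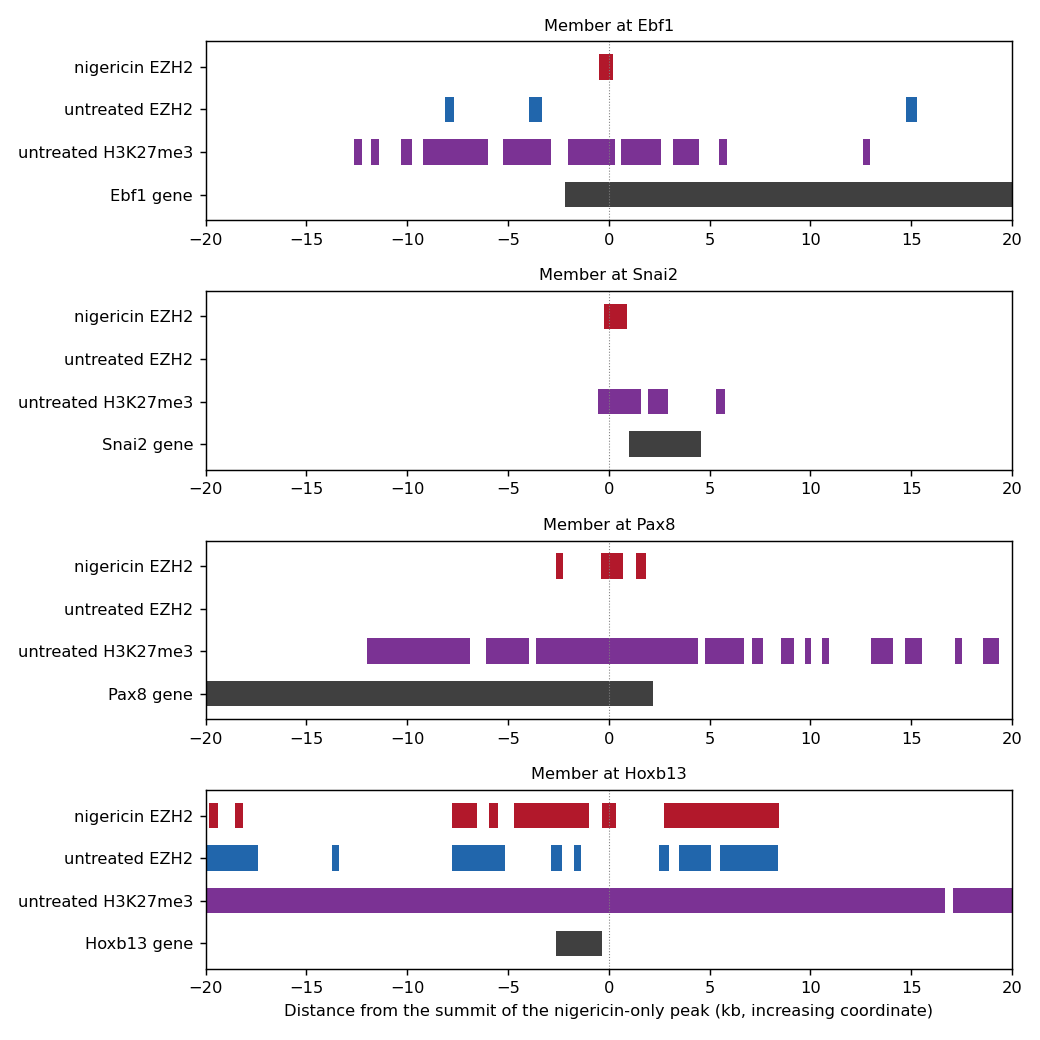
Peaks of nigericin EZH2 (red), untreated EZH2 (blue) and untreated H3K27me3 (purple) and the gene body (dark) within 20 kb of the summit of 4 peaks of the set; the horizontal axis is distance from that summit in kb. No untreated EZH2 peak appears around Snai2 and Pax8, while at Ebf1 and Hoxb13 untreated peaks stand to both sides.

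Among signalling genes, ligands and their antagonists had peaks of the set at scattered members. Of 35 TGF-beta and BMP genes, 4 had a peak (11.4%; 25 had H3K27me3): the ligand genes Gdf11 and Tgfb2 and the BMP antagonist genes Nog and Chrd. Gdf11 had 3.89-fold with 12 fragments and a −log10 q of 1.75. Tgfb2 had 2.69-fold with 8 fragments, a −log10 q of 0 and the nearest untreated peak 393343 bp away. At Nog an untreated peak of 4.85-fold with 25 fragments stood 396 bp from the peak of the set (3.30-fold, 12 fragments). Of 44 WNT genes, Wnt9b (2.56-fold), Wnt7b (2.21) and Wnt7a (2.03) had a peak (6.82%; 37 had H3K27me3), and only Wnt7a had no untreated peak at the start. Fgf20 was the 1 of 22 fibroblast growth factor genes (2.72-fold, 11 fragments). None of these WNT and FGF peaks reached a q of 0.05.

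A few receptor, channel and matrix genes had a peak of the set. Of 22 ephrin and Eph receptor genes, Ephb3 (2.65-fold, 19 fragments) and Epha10 (2.34-fold, 11 fragments) had a peak, neither with an untreated peak at the start. Among voltage-gated potassium channel genes, Kcng2 had a peak of 3.17-fold with 15 fragments, 346 bp from an untreated peak of 2.46-fold. Gabbr2, a GABA receptor subunit gene, was the 1 of 43 glutamate and GABA receptor genes (2.88-fold, 20 fragments, −log10 q 1.45). Col15a1 was the 1 of 52 collagen and proteoglycan genes at a start (2.02-fold, 11 fragments), and 0 of 34 cadherin genes had a peak. Optc, the gene of the proteoglycan opticin, had a peak inside the gene (chr1:133909000-133909424; 3.89-fold, 12 fragments) that was the nearest also to Prelp, with the nearest untreated peak 384268 bp away. Col4a3 had no peak of the set.

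No peak of the set lay at any of 22 measured type I interferon genes, 23 inflammasome and IL-1 genes, 28 LPS-induced genes or 20 macrophage identity genes. In those lists 0, 2, 4 and 0 genes had H3K27me3, so the rule left almost no gene that could have been met. The 25 p53 targets, 30 Polycomb genes and 22 erythroid, endothelial and stromal genes also had 0, with H3K27me3 at 4, 7 and 9 of them.

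Several other gene starts stood among the 25 highest. Nova2, a neuronal splicing factor gene, had 4.49-fold with 14 fragments and an untreated peak of 3.44-fold 477 bp away. The bradykinin receptor gene Bdkrb2 had 4.08-fold with 17 fragments, and an untreated peak of 3.12-fold stood 193 bp away. Smarcd3, of the BAF remodelling complex, had 3.81-fold with 21 fragments, beside an untreated peak of 3.47-fold with 29 fragments 85 bp away. Uaca had 3.72-fold with 15 fragments, H3K27me3 of 3.03-fold and the nearest untreated peak at 19422 bp. A peak inside Nol3 also lay at an end of Hsf4 (chr8:105276319-105276939; 3.63-fold, 15 fragments), with the nearest untreated peak 454710 bp away. Gad2, which encodes a GABA-synthesising enzyme, had 3.81-fold, and Nhlh2 and Slc7a10 had 3.89-fold each, all within 120 bp of an untreated peak. The rest of the 25 had 3.59 to 4.41-fold: Calcoco2, Plekhd1, Prdm8, Gckr, Coro2b, Etv2, Ntf5, Abhd6, Fermt2 and Insm2.

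Inside genes and away from the counted starts and ends, the highest peaks were in Elfn2 (chr15:78712376-78713724, 4.89-fold, 16 fragments) and Pax8. They were followed by a peak in 2300002M23Rik, near the skin gene Cdsn (chr17:35568911-35569533, 4.66-fold). Next was one in Gdnf, the neurotrophic factor gene (chr15:7815699-7816265, 4.46-fold), 285 bp from an untreated peak of 3.19-fold. A peak of 4.19-fold with 13 fragments over 2167 bp (chr5:92682474-92684640) overlapped Shroom3, a regulator of epithelial shape. That peak crossed the annotated edge of the gene (chr5:92683435-92965759) but met none of its counted starts, and lay in a domain without untreated EZH2. The peak at Calcoco2 overlapped Ttll6 as well. Outside genes, 23 of the 92 peaks with q of at most 0.05 were found. The 5 highest were chr12:86213790-86214116 (4.49-fold), chr5:75078205-75078544 (4.32-fold, 311 bp from the homeobox gene Gsx2), chr11:96013066-96013442 (4.19-fold), chr10:42593058-42593708 (4.16-fold, near the neural receptor gene Nr2e1) and chr4:22494626-22495075 (4.16-fold, near Pou3f2).

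Some domains held several peaks of the set. The HOXC cluster (chr15:102725633-103155991) held 12, with 49 nigericin and 65 untreated EZH2 peaks in all, and the HOXB cluster from Hoxb13 to Hoxb3 held 7 with 27 and 25. There 37 and 20 nigericin peaks met untreated ones. The balance differed in other domains: one with H2-Q genes and Pou5f1 (chr17:35383676-35662089) held 7 peaks of the set and 8 nigericin peaks against 3 untreated, and one at the calcium channel gene Cacna1i held 6, with 7 nigericin against 1 untreated. Domains at Tlx1 and at Nphs1 and Kirrel2 held 6 each, and those at Pdx1 and Cdx2 and at the cell-cycle inhibitor genes Cdkn2a and Cdkn2b held 5 each. The set's lowest q belonged to chr8:123616608-123617716 (3.13-fold, 46 fragments over a background of 14.0, −log10 q 6.46), in a domain of 5S ribosomal RNA genes with 42 untreated EZH2 peaks. Near-identical copies can share reads there and at a tRNA cluster on chromosome 3 with 6 peaks of the set, so these are uncertain; in all 18 peaks (1.70%) lay in domains with rRNA or tRNA genes.

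The measurements that the rule did not use were H3K27ac, p53 and SIRT1. Of the set, 5 peaks (0.473%, 0.202 to 1.10) met H3K27ac and 2 (0.189%) met p53, where all nigericin EZH2 peaks gave 4.19% and 2.26%. The nigericin-only peaks outside H3K27me3 gave 8.88% and 2.51%, the shared peaks 0.244% and 0.183%, and the untreated-only peaks in H3K27me3 1.00% and 0.231%. In this the set lay with the other EZH2 peaks in H3K27me3. That mark and H3K27ac cannot stand together on a given histone tail. Since the rule required H3K27me3, a low H3K27ac share is not independent of the rule. The 5 with H3K27ac included places at Ltbp2 (EZH2 3.50-fold, H3K27ac 3.53-fold) and in Igf2r (2.39-fold and 2.98-fold), and the 2 with p53 lay in Adam19 and Cpne7.

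SIRT1, a deacetylase, met 143 peaks of the set in at least 1 of its 4 lists (13.5%, 11.6 to 15.7), against 14.8% of all nigericin EZH2 peaks. The shared peaks gave 23.0%, the untreated-only peaks 19.1% and the nigericin-only peaks outside H3K27me3 8.88%. Peak length moved with this: over 400 bp around the summit in place of the whole peak, an alternative chosen after seeing the data, the share of the set was 11.7%, against 14.5% of the shared, 389 of 2593 of the untreated-only and 8.12% of the outside peaks. By list, the set met SIRT1 at 1.89% in Ezh2 knockout and 5.30% in Ezh2 wild-type cells, and at 3.88% in p53 knockout and 4.07% in p53 wild-type cells. The Ezh2 knockout list had 18087 peaks and the Ezh2 wild-type list 74346, and the part of list length in the first pair of shares was not tested; a difference between lists so unequal is not read as a change of binding. Few overlaps recurred: 14 peaks of the set (1.32%) met at least 2 lists and 0 met all 4. The 3 that met 3 lists lay at Etv4, 1823 bp from the p53 target Cdkn1a (chr17:29102546-29102932; 2.69-fold, 8 fragments) and in the 5S rRNA domain.

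**Figure D4:**
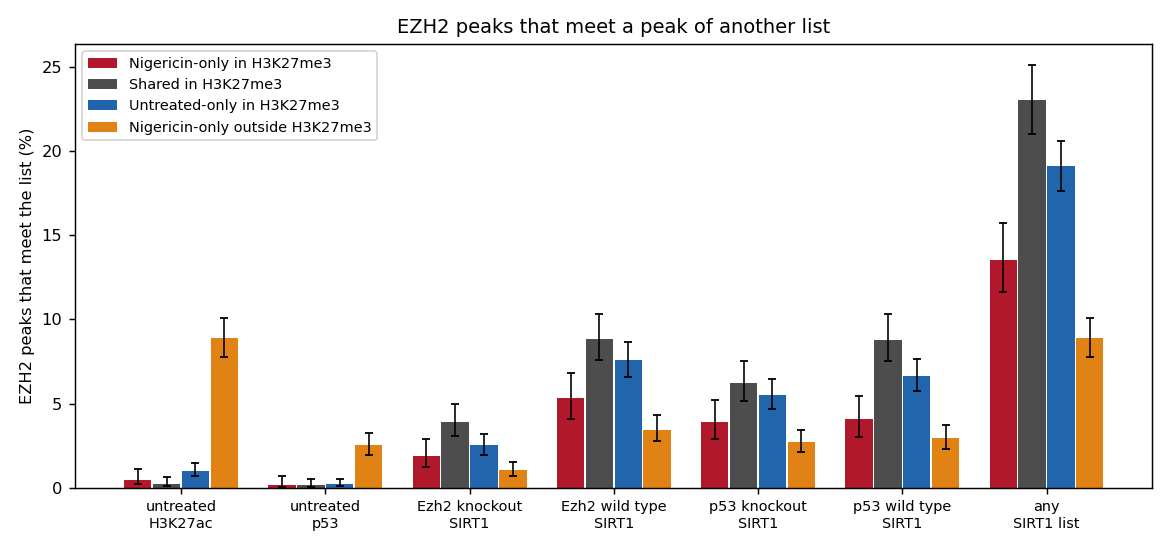
Share of EZH2 peaks (%) in each of 4 sets that meet a peak of H3K27ac, p53 or SIRT1 in 1 library each (bars from 0; lines, Wilson 95% intervals). The nigericin-only peaks in H3K27me3 meet H3K27ac at 0.473%, against 8.88% outside H3K27me3, and any SIRT1 list at 13.5%.

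The base composition of promoters was read from 32585 listed windows of 300 bp, a window being called CpG-rich with GC above 50% and a CpG observed-over-expected ratio above 0.6. Peaks of the set met 91 windows, of which 22 were CpG-rich (24.2%, 16.5 to 33.9), against 59.5% of 284 met by shared peaks, 65.0% of 472 met by untreated-only peaks in H3K27me3 and 33.5% of all windows. Of the 91 windows, 48 belonged to genes that are not protein-coding, and 1 gene can have many starts a few bases apart: 9030622O22Rik gave 13 of the 91, Gm12426 gave 6 and Gm14114 gave 4. Alternatives chosen after seeing the data took these choices apart. With every listed window of protein-coding genes alone, 20 of 43 windows of the set were CpG-rich (46.5%, 32.5 to 61.1), against 65.7% for shared peaks (59.0 to 71.8), 68.2% for untreated-only peaks and 45.3% of all windows. With 1 window per gene over all genes, 18 of 58 were CpG-rich (31.0%, 20.6 to 43.8), against 61.7%, 64.9% and 34.2% in the same order. With both choices together, 16 of 35 were CpG-rich (45.7%), against 67.1%, 68.1% and 46.0%. The share for the set was below those for shared and untreated-only peaks in each of the 4 counts, but over protein-coding genes its interval overlapped that of the shared peaks. Against all promoters, the share of all windows was within the interval of the set in each count. Windows in H3K27me3 without an EZH2 peak of either list gave 25.7% of 3971 over every listed window and 32.8% over those of protein-coding genes. With 1 window per gene they gave 26.6% over all genes and 34.0% over protein-coding genes. These shares, too, were within the interval of the set in each count.

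The CpG-rich share was highest at the strongest peaks of the set. Over every listed window, 12 of 30 met by peaks of the set with at least 13 fragments were CpG-rich (24.6 to 57.7). With 10 to 12 fragments it was 8 of 49 (16.3%, 8.51 to 29.0), and with at most 9 it was 2 of 12 (16.7%). The first 2 intervals overlap, and windows of the same gene are not independent. For shared peaks the shares at 13 or more and at 10 to 12 fragments were 63.0% and 36.8%, and for untreated-only peaks 71.2% and 51.9%. With at most 9 fragments they were 2 of 3 and 7 of 29. The part of strength in the difference was not tested. Of short motifs searched on both strands, CGCGCG was in 7.69% of the windows of the set, 51 of 284 windows of shared peaks and 11.4% of all, and it overlaps the CpG count by construction. An NF-kB motif was in 1 window of the set (1.10%, against 1.64% of all) and an interferon-response motif in 2 (2.20%, against 3.45% of all).

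**Figure D5:**
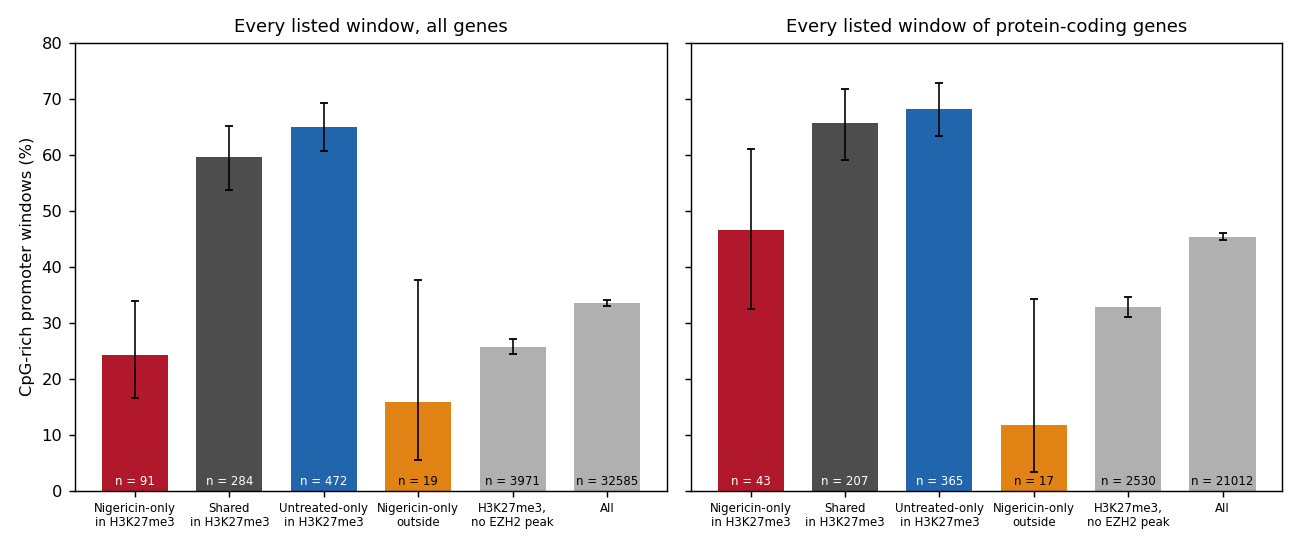
Share of promoter windows (%) with GC above 50% and a CpG observed-over-expected ratio above 0.6, by the EZH2 peaks that meet them, over every listed window of all genes (left) and of protein-coding genes alone (right); lines are Wilson 95% intervals and n is the number of windows. The set stands at 24.2% of 91 windows on the left and 46.5% of 43 on the right, and all promoters at 33.5% and 45.3%.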

How the data were processed

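Per the labels' protocols, immunoprecipitated DNA from sonicated nuclei was sequenced, with 1 library per group (16 samples, 7 of them inputs). The tools named in the submitters' processing notes are MACS2 and deepTools, and the build is GRCm38/mm10. The aligner, tool versions and read totals are not stated in the sources used here. The deposited files are 9 peak lists, 1 per library, none pooled. In the deposited fold column each value is a ratio, summit fragments over background, after 1 was added to both as a pseudocount. Further deposited columns give −log10 of a peak's p-value and q-value from the authors' caller, and the deposited score column is 10 times one of them. From the values, histone lists were limited at a q of 0.05 and the others at a p of 0.01.

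Summit fragment numbers were recovered from each fold and p-value with a Poisson model, to within 0.0001 of the −log10 p, a step tested on simulated data. Overlap meant at least 1 bp. A gene had a peak when it overlapped 1 kb either side of its start, or of either end for the genes without strand (17274 of 21631 had strand). Genes and promoter windows are from RefSeq (GRCm38.p6); promoter windows on chromosome 18 were not used here. No genome sequence was used here, so bases under peaks away from promoters are not given. Python 3.11.15, numpy 2.4.6, pandas 2.3.3, scipy 1.17.1 and matplotlib 3.10.9 were used. With 1 library per group no test was run.

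The members and gene lists were chosen with earlier results of these data known. Genes named were the 25 with the highest fold at a start or end, up to 4 per gene list, 7 known from earlier results, and the 5 highest peaks outside genes with q of at most 0.05; list members beyond 4, peaks within genes, domains and overlaps with other lists were named after their values were seen. A result that the naming rule selects is not reported here. Alternatives were a stricter q, a 50% overlap, distance limits, lists of equal length, other domain gaps and a 5 kb window. Others were chosen after seeing the data: without chromosome X, without rRNA and tRNA domains, 400 bp around summits, and promoter windows limited to protein-coding genes, to 1 per gene, or to both. These last were added after the share over every listed window had been computed, and all are reported.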

Additional observations from a re-analysis of the deposited data

How the results depend on the processing

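No paired analysis was possible because each group held 1 library. With only peaks of q at most 0.05, the set held 92 peaks at 32 genes, 82.6% in a domain with untreated EZH2, H3K27me3 of 8.65-fold and 0% meeting p53. Without untreated EZH2 within 1 kb it held 669 peaks (135 genes, 59.9%, 6.83-fold), and within 5 kb 430 (98 genes, 38.4%, 6.18-fold). An overlap of 50% of the shorter peak gave 80.8% and 7.91-fold, an untreated list cut to equal length 66.7%, and H3K27me3 of −log10 q at least 5 gave 7.91-fold. Domain gaps of 1 and 10 kb gave 65.8% and 77.3%, and a 5 kb gene window gave 568 genes. Among alternatives chosen after seeing the data, the CpG-rich share of promoter windows was 46.5% over protein-coding genes alone and 45.7% with 1 window for each of them, in place of 24.2%, and with 1 window per gene over all genes it stayed within the interval at 31.0%. Of 70 recomputed values of 8 results, 48 stayed within 1.5 times the count or within the counting interval, including all those without chromosome X or without rRNA and tRNA domains. Read totals are not known here, which limits every comparison of both EZH2 lists.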
